A study of Rattus norvegicus with 6 samples.

Results

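The laminin chains and nidogens form the core of the basement membrane, and 10 of their genes were followed here in Schwann cell precursors (SCPs) and repair Schwann cells (RSCs) of the rat. The 10 genes were the alpha chains Lama1, Lama2, Lama4 and Lama5, the beta chains Lamb1 and Lamb2, the gamma chains Lamc1 and Lamc3, and the nidogens Nid1 and Nid2. They were taken by symbol from the 29468 symbols of the tables, 20494 of them with some expression in 1 or more samples. The SCPs came from the sciatic nerves of both sides and the brachial plexus of embryos at embryonic day 14, with no treatment. The RSCs came from the distal part of the sciatic nerve of 10-week-old rats, 1 week after it was cut. Both were of the LEWIS strain and are labelled wild type, and both were dissociated with enzymes before RNA extraction. The authors describe more concentrated collagenase and a longer digestion for the RSCs, so digestion and group cannot be told apart. Each group held 3 preparations, named here SCP1 to SCP3 and RSC1 to RSC3. The labels do not say whether these came from separate animals or litters, so the p-values measure the spread between these preparations.

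A laminin is a heterotrimer of 1 alpha, 1 beta and 1 gamma chain, which is assembled inside the cell before it is secreted. The alpha chain carries the domain that binds integrins and dystroglycan, and nidogens bridge laminin and type IV collagen in the sheet that forms. In nerve, Schwann cell precursors have no basal lamina, whereas mature Schwann cells are each wrapped in one whose best known laminin contains the alpha2 chain. Trimers are named by their chain numbers, so that laminin α2β1γ1 holds the products of Lama2, Lamb1 and Lamc1.

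The windows of 250 bases upstream of the annotated start of 4 members are printed below to show the sequence before that start next to the values that follow. Nid1 was among the members higher in the RSCs, and Lamb1 overlapped between the groups. Whether Lama2 was higher in every RSC preparation, and the fold change of Lama1, depended on how transcripts were summed. The sequences are RefSeq windows on the GRCr8 build, 5′ to 3′ in the direction of transcription, and capitals mark matches to a searched motif.
Lama1 (chr9:115139298-115139547, plus strand): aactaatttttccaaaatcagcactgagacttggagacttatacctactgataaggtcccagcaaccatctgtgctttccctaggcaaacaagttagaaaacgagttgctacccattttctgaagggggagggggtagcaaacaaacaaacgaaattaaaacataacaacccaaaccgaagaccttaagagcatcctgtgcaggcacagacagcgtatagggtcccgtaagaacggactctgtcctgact
Lama2 (chr1:19491896-19492145, plus strand): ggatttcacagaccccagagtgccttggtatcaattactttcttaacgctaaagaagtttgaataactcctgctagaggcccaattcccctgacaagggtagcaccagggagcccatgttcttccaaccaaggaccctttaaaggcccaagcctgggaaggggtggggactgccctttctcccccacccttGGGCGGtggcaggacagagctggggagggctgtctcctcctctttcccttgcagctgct
Lamb1 (chr6:53562846-53563095, plus strand): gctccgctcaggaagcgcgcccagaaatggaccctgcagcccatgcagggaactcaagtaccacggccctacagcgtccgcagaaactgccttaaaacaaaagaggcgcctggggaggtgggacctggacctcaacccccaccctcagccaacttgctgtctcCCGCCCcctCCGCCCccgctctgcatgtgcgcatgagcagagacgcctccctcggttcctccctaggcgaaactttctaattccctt
Nid1 (chr17:93069036-93069285, plus strand): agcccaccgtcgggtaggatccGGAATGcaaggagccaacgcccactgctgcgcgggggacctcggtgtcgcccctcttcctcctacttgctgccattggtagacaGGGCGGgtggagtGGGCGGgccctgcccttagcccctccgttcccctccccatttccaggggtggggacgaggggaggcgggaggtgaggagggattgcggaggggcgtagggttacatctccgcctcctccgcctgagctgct
RefSeq windows were found for 8 of the 10 members, the entries for Lamb2 and Nid2 being missing. The motifs searched on both strands were AP-1 (TGANTCA), a GC box (GGGCGG), SOX (ACAAAG) and TEAD (GGAATG). The capitals in the Lama2 and Lamb1 windows are GC boxes, 1 in Lama2 at 59 bases before the start and 2 in Lamb1 at 87 and 78 bases. Nid1 held 2 GC boxes, at 144 and 131 bases, and 1 TEAD match at 228 bases before the start. The Lama1 window held no match to any of these motifs. A GC box was present in 6 of the 8 members' windows and in 30.5% of the 33469 windows of all genes. TEAD letters were found in 2 of the 8 windows against 12.1% of all, and AP-1 and SOX letters in 0 of 8 against 6.34% and 16.3%. The G and C content of the members' windows was 44.8% to 72.8%, only Lama1 lying below the median of 51.2% over all windows. The part of this content in the match counts was not tested. These matches describe the letters of each window and no binding was measured. Each window covers only the annotated start shown. For Lama2, some transcripts without a gene name, described below, began about 153 kb before the named start. Which of these starts its window lies at was not examined.

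Levels are given in FPKM, fragments normalized for the length of the transcript and for the number of mapped fragments, so that they can be set against each other between genes. Each table lists reference transcripts with a gene name and also transcripts without a name that were assembled in that sample alone. The first estimate summed the named transcripts of each symbol. The second added the unnamed transcripts that were assigned to the same gene locus and overlapped the gene. Unnamed transcripts held 26.1% to 31.9% of all FPKM in the SCPs and 18.6% to 23.4% in the RSCs, and relative depth, set to 1 in the deepest library, was 0.88 to 1.00 in the SCPs and 0.79 to 0.84 in the RSCs. A gene was called at an unadjusted limma p under 0.01 on log2(FPKM + 1), a scale that understates the change of low genes.

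Most of the members that passed the test were higher in the RSCs, among them Nid1, Lamb2, Lama5, Lamc1 and Lamc3 in both estimates. With named transcripts 5 of the 10 members were called higher in the RSCs and 0 in the SCPs, at limma's p under 0.01, with 1 more (Nid2, lower in the RSCs) at an unadjusted p under 0.05. Over the 13003 genes tested, 18.1% were called higher in the RSCs and 22.4% higher in the SCPs. With unnamed transcripts 6 members were called higher in the RSCs, Lama2 being added, and 2 were called higher in the SCPs, Lama1 and Nid2. The share over the 14019 genes tested in that estimate was 23.2% for RSCs and 34.2% for SCPs. Of those calls Lama2 rose and Lama1 fell by over 4-fold, as did 8.57% and 4.58% of all genes in those directions. The median log2 fold change of the members was 1.22 with named and 1.18 with unnamed transcripts, against -0.17 and -0.24 over all genes tested. The groups did not overlap, with the RSCs higher, for 6 members with named and 7 with unnamed transcripts, where 24.9% and 28.8% of all genes did so. They did not overlap with the SCPs higher for 1 and 2 members, against 33.7% and 43.6% of all genes. Median-of-ratios scaling, chosen to bring the typical gene level between samples, moved the all-gene median from -0.17 to 0.0092. It also moved the share of called genes that were higher in the RSCs from 44.6% to 55.7%. Set against the median gene, each log2 fold change below is thus higher by 0.17 with named and by 0.24 with unnamed transcripts. RNA came from whole preparations, so fewer cells of a type and less RNA per cell cannot be told apart.

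**Figure D1:**
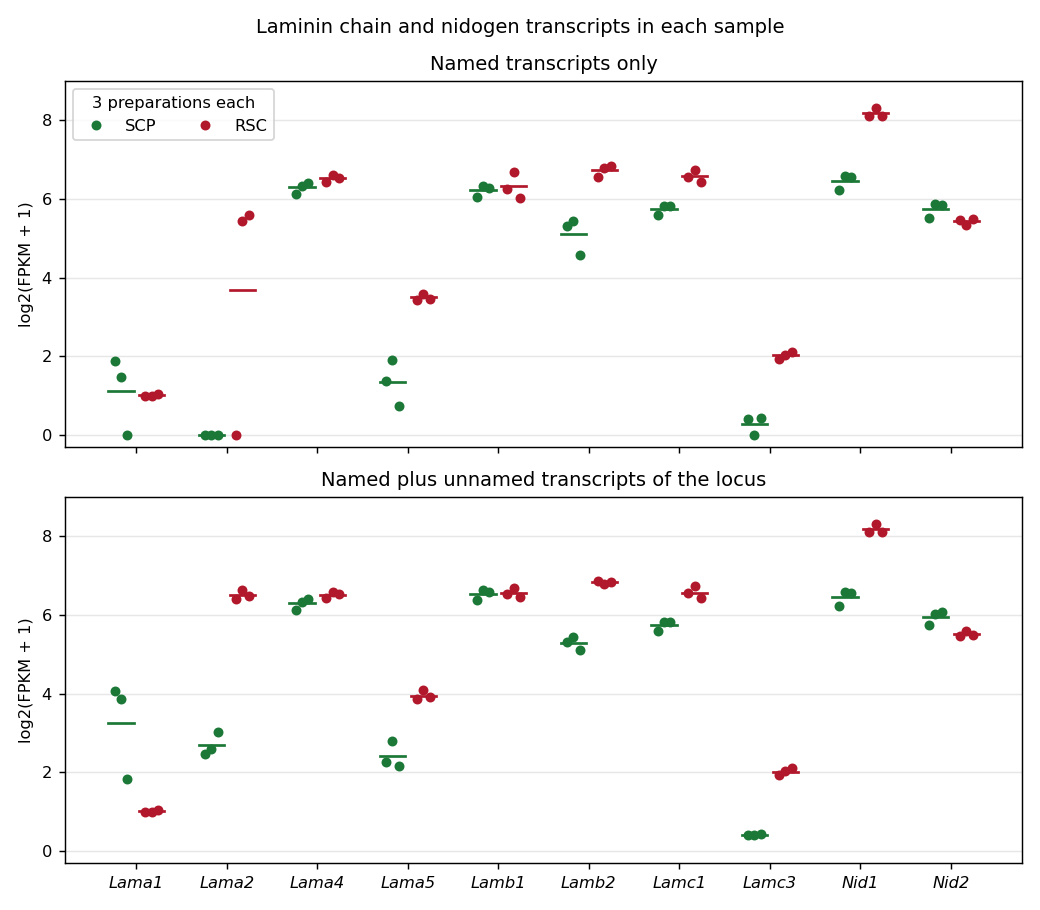
log2(FPKM + 1) of the 10 members (x axis) in each of the 3 SCP and 3 RSC preparations (points) with the group mean (bar), from named transcripts (upper panel) and after unnamed transcripts of the locus were added (lower panel). Nid1 was the highest member in the RSCs in both panels, and Lama2 in RSC1 moved from 0 to 84.4 FPKM between them.

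Among the alpha chains, Lama2 separated the groups most once unnamed transcripts were counted. Lama2 (chromosome 1, 18644201 to 19143486 on the rn6 build, as all positions below) encodes the alpha2 chain, whose loss causes a muscular dystrophy with neuropathy. Its named transcript was listed at 0 in SCP1, SCP2, SCP3 and RSC1, and at 42.3 FPKM in RSC2 and 47.6 FPKM in RSC3. The groups thus overlapped at 0, and the difference was not called (limma log2 fold change 3.68, SE 1.53, unadjusted p = 0.0531, adjusted p = 0.0972). Without RSC1 it was called, with a log2 fold change of 5.52. With unnamed transcripts Lama2 stood at 4.53, 5.02 and 7.15 FPKM in SCP1, SCP2 and SCP3, and at 84.4, 99.1 and 88.5 FPKM in RSC1, RSC2 and RSC3. Every RSC preparation lay above every SCP preparation, and means of 90.7 ± 7.59 and 5.57 ± 1.39 FPKM (SD, n = 3 each) gave a 16.3-fold difference. It was called, with a log2 fold change of 3.82 (SE 0.16, limma adjusted p = 6.42e-06).

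The zero of RSC1 belonged to the named transcript and not to the locus. In RSC1 the upper Cufflinks bound on the named Lama2 transcript of 9813 bases was 0.0435 FPKM, whereas 3 unnamed transcripts of the same locus held 15.8, 32.4 and 36.3 FPKM. All 3 were nearly as long as the named one, at 9714, 9706 and 9549 bases. Unnamed transcripts that began about 153 kb before the named start were assembled in all 3 RSC preparations and in SCP1 and SCP2. In SCP3 the earliest unnamed transcript began at the named start. Weighting each unnamed transcript by its length relative to the named one, an alternative chosen after the data were seen, gave Lama2 means of 88.8 ± 6.0 FPKM in RSCs and 4.33 ± 1.31 FPKM in SCPs (SD, n = 3 each).

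**Figure D2:**
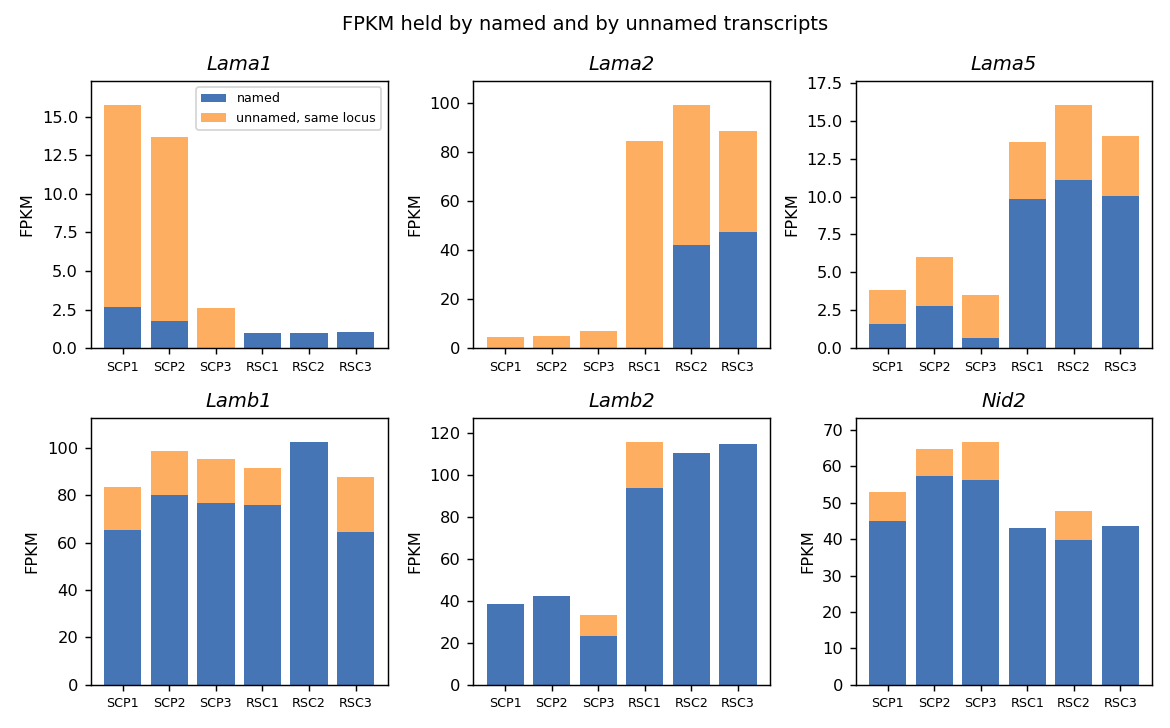
FPKM (y axis) of the named transcripts (blue) and the unnamed transcripts of the same locus (orange) in each preparation for 6 members that have unnamed transcripts. All Lama2 FPKM of the SCPs and of RSC1 lay in unnamed transcripts, as did most Lama1 FPKM in SCP1 and SCP2.

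Lama4 (chromosome 20, 44060535 to 44201966), which encodes the short alpha4 chain found in endoneurial and vascular basement membranes, was high in both groups. It measured 69.2, 80.0 and 84.4 FPKM in SCP1 to SCP3 and 86.0, 96.0 and 91.1 FPKM in RSC1 to RSC3, all from the named transcript. The RSC values were all above the SCP values, by 1.17-fold in the means, but the difference was not called (log2 fold change 0.23, SE 0.10, limma adjusted p = 0.113). It became called after median-of-ratios scaling, at a log2 fold change of 0.44 (unadjusted p = 0.0091), where all genes had shifted the same way.

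Lama5 (chromosome 3, 175553042 to 175601112), whose alpha5 chain is widespread in adult basement membranes, was low in SCPs and several-fold higher in RSCs. Its named transcript gave 1.61, 2.78 and 0.657 FPKM in SCP1 to SCP3 and 9.84, 11.1 and 10.0 FPKM in RSC1 to RSC3. The groups did not overlap, and the mean of 10.3 ± 0.681 FPKM was 6.14-fold that of 1.68 ± 1.06 FPKM (SD, n = 3 each). The log2 fold change of 2.16 (SE 0.32, limma adjusted p = 0.00289) passed the 4-fold limit, which 7.81% of all genes passed in this direction. With unnamed transcripts the values were 3.81, 5.98 and 3.49 FPKM against 13.6, 16.0 and 14.0 FPKM, and the log2 fold change fell below that limit, to 1.54 (SE 0.19, limma adjusted p = 5.30e-04).

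Lama1 (chromosome 9, 115916907 to 116042123) encodes the alpha1 chain, the alpha chain of the earliest embryonic basement membranes. Its named transcript of 10570 bases was at 2.68 and 1.76 FPKM in SCP1 and SCP2, was listed at 0 in SCP3, and was at 1.00, 0.987 and 1.06 FPKM in RSC1 to RSC3. The groups overlapped, with a log2 fold change of -0.10 (SE 0.51, limma adjusted p = 0.887), whose sign turned to 0.011 after median-of-ratios scaling. With unnamed transcripts the SCP values became 15.7, 13.7 and 2.57 FPKM, and the RSC values stayed as they were. Every SCP preparation was then above every RSC preparation, with a log2 fold change of -2.25 (SE 0.57, limma unadjusted p = 0.00669, adjusted p = 0.0123).

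Most of that FPKM was in short transcripts. In SCP1 and SCP2 a single unnamed transcript of 1909 and 1915 bases at the high-coordinate end of Lama1 held 13.1 and 11.9 FPKM. SCP3 instead had an unnamed transcript of 10574 bases over the whole gene, at 2.57 FPKM. Weighted by length, Lama1 was at 5.04, 3.92 and 2.57 FPKM in the SCPs, with a log2 fold change of -1.23 (SE 0.21, limma adjusted p = 0.00187). Of all genes under these weights, 24.6% were called higher in the RSCs and 37% in the SCPs. The unweighted call for Lama1 was lost without RSC1, RSC2, RSC3, SCP1 or SCP2, with log2 fold changes of -2.26 to -1.85 and unadjusted p-values up to 0.0251, and held without SCP3, where the log2 fold change was -2.96.

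Of the beta chains Lamb2 was called higher in the RSCs and Lamb1 was not called. Lamb2 (chromosome 8, 117268335 to 117280517) encodes the beta2 chain, first described at neuromuscular synapses. Its named transcripts summed to 38.7, 42.2 and 23.1 FPKM in SCP1 to SCP3 and to 93.7, 110.4 and 114.6 FPKM in RSC1 to RSC3. The groups did not overlap, the RSC mean of 106 ± 11.01 FPKM being 3.06-fold the SCP mean of 34.7 ± 10.2 FPKM (SD, n = 3 each). The log2 fold change was 1.63 (SE 0.24, limma adjusted p = 0.00257), and 1.56 (SE 0.099, adjusted p = 2.98e-05) with unnamed transcripts, which added FPKM in SCP3 and RSC1.

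Lamb1 (chromosome 6, 50528798 to 50596593), the beta1 chain of most laminins, gave named sums of 65.1, 80.1 and 76.9 FPKM in SCP1 to SCP3 and of 75.9, 102 and 64.6 FPKM in RSC1 to RSC3. RSC2 was the highest and RSC3 the lowest of all 6, so that the groups overlapped. With unnamed transcripts the values were 83.2, 98.7 and 95.1 FPKM against 91.5, 102 and 87.5 FPKM. The log2 fold change was 0.11 (SE 0.19, limma adjusted p = 0.672) with named and 0.023 (SE 0.099, adjusted p = 0.851) with unnamed transcripts, and its sign changed under several alternatives given in the closing section.

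Both gamma chains rose in the RSCs, from very different levels. Lamc1 (chromosome 13, 70656727 to 70783515) encodes gamma1, the gamma chain of nearly all laminins, and had no unnamed transcripts. It was at 47.5, 55.9 and 55.9 FPKM in SCP1 to SCP3 and at 92.7, 105.6 and 85.5 FPKM in RSC1 to RSC3. Its groups did not overlap, and the 1.78-fold difference in means had a log2 fold change of 0.82 (SE 0.11, limma adjusted p = 0.00219).

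Lamc3 (chromosome 3, 9265407 to 9327130), the rarer gamma3 chain, was listed at 0.331, 0 and 0.341 FPKM in SCP1 to SCP3 and was at 2.80, 3.08 and 3.33 FPKM in RSC1 to RSC3. An unnamed transcript brought SCP2 to 0.335 FPKM, so that the SCP values then lay within 0.331 to 0.341 FPKM. Its log2 fold change was 1.74 (SE 0.23, limma adjusted p = 0.0018) with named and 1.61 (SE 0.15, adjusted p = 1.48e-04) with unnamed transcripts, and the latter means differed 9.14-fold.

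Of the nidogens, Nid1 was called higher in the RSCs in both estimates. Nid1 (chromosome 17, 90553161 to 90627128) was at 74.6, 95.2 and 93.4 FPKM in SCP1 to SCP3 and at 274, 319 and 277 FPKM in RSC1 to RSC3, all in its named transcript. The lowest RSC preparation was well above the highest SCP preparation. The means of 290 ± 25.5 and 87.8 ± 11.4 FPKM (SD, n = 3 each) differed 3.31-fold, with a log2 fold change of 1.72 (SE 0.12, limma adjusted p = 1.77e-04).

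Nid2 (chromosome 15, 4893999 to 4951893), the second nidogen, was at 45.1, 57.5 and 56.1 FPKM in SCP1 to SCP3 and at 43.0, 39.9 and 43.7 FPKM in RSC1 to RSC3. All SCP values were higher, but the difference was not called with named transcripts (log2 fold change -0.31, SE 0.12, limma unadjusted p = 0.0391, adjusted p = 0.0758). Without SCP1 it was called, at -0.42 (unadjusted p = 0.0054). With unnamed transcripts Nid2 was at 53.1, 64.8 and 66.7 FPKM against 43.0, 47.7 and 43.7 FPKM, and was called (log2 fold change -0.44, SE 0.11, limma unadjusted p = 0.00565, adjusted p = 0.0107). This call held without SCP1 and was lost without any of the other 5 preparations. It was also lost after median-of-ratios scaling, at -0.18 (unadjusted p = 0.181).

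**Figure D3:**
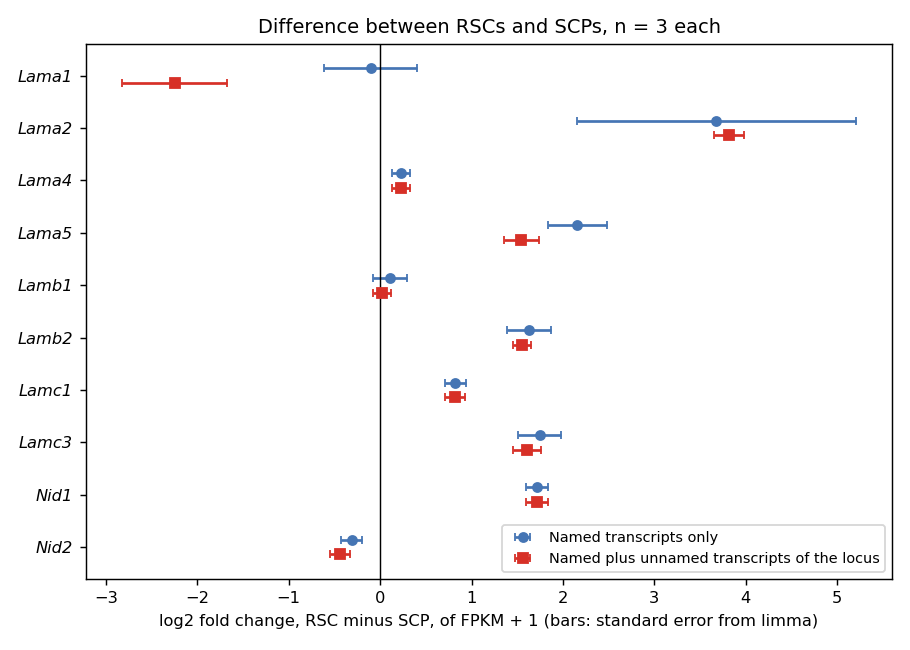
Log2 fold change of FPKM + 1, RSC minus SCP (x axis), of each member (y axis) from named transcripts (blue circles) and with unnamed transcripts (red squares), with limma's standard error as bars, n = 3 per group. Lama1 moved from -0.10 to -2.25 and the error of Lama2 narrowed from 1.53 to 0.16, while Lama4, Lamc1 and Nid1 had the same fold change in both.

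The order of the members by FPKM differed between the groups. In the RSCs with unnamed transcripts Nid1 came first, then Lamb2, then Lamc1, Lamb1, Lama4 and Lama2, whose neighbouring ranges overlapped. Nid2, Lama5, Lamc3 and Lama1 followed in that order with no overlap between neighbours. In the SCPs Lamb1, Nid1 and Lama4 came first with overlapping ranges, followed by Nid2 and Lamc1, which overlapped. Lamb2 stood alone after these, then Lama1, Lama2 and Lama5 overlapped, and Lamc3 was last. The laminin genes Lama3 and Lamb3, outside the 10, stayed below the mean of 1 FPKM needed for a test. With named transcripts Lama3 was at most 1.06 FPKM (RSC1) and Lamb3 at most 0.212 FPKM in any sample.

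Within each class of chain the shares of FPKM, which do not depend on the scaling of a sample, shifted between the groups. With unnamed transcripts Lama2 made up 4.85%, 4.8% and 7.33% of alpha chain FPKM in SCP1 to SCP3 and 45.6%, 46.7% and 45.5% in RSC1 to RSC3. Lama4 correspondingly held 74.2%, 76.4% and 86.5% in the SCPs and 46.5%, 45.2% and 46.8% in the RSCs. The groups were apart for both, by 40.3 and -32.9 percentage points in the means, RSC minus SCP. For Lama2 with named transcripts, which were listed at 0 in 4 samples, the groups overlapped (exact permutation p = 0.4).

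Lamb2 held 31.7%, 30.0% and 26.0% of beta chain FPKM in the SCPs and 55.8%, 51.9% and 56.7% in the RSCs. Nid1 held 58.5%, 59.5% and 58.3% of nidogen FPKM in the SCPs and 86.4%, 87.0% and 86.4% in the RSCs. Lamc3 stayed a minor gamma chain, at 0.596% to 0.692% in the SCPs and 2.83% to 3.75% in the RSCs. None of these ranges overlapped, and each gave a two-sided exact permutation p of 0.1, the smallest that 3 against 3 samples allow.

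**Figure D4:**
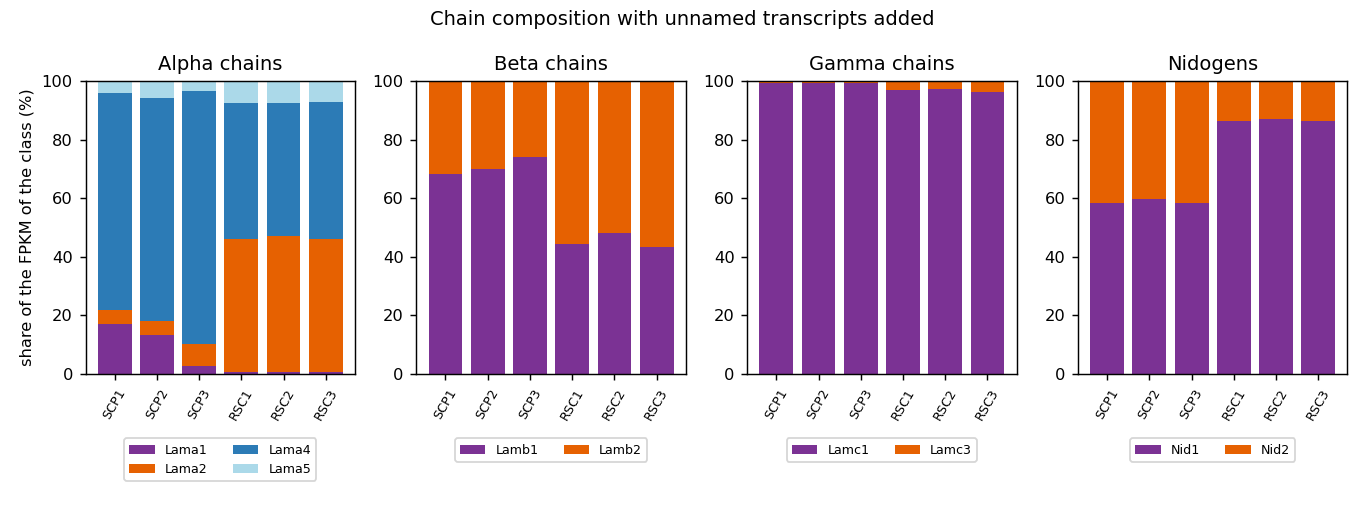
Share of FPKM (y axis, %) of each chain within the alpha, beta and gamma chains and of each nidogen, per preparation, with unnamed transcripts added. Lama2 was 45.5% to 46.7% of alpha chain FPKM in the 3 RSC preparations and at most 7.33% in the SCPs.

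Summed over the 8 laminin chains, FPKM with unnamed transcripts was 282 ± 19.4 in the SCPs and 502 ± 27.0 in the RSCs (SD, n = 3 each), a 1.78-fold difference with no overlap (exact permutation p = 0.1). The ratio of Lama2 to Lama4 was 0.0710 ± 0.0120 in SCPs and 0.995 ± 0.0328 in RSCs. The ratio of Nid1 to Nid2 was 1.43 ± 0.0385 and 6.47 ± 0.203. Nid1 also stood higher against Lamc1, the chain to which nidogens bind, at 1.65 ± 0.0695 in SCPs and 3.07 ± 0.149 in RSCs, and each of these ratios was apart between the groups (exact permutation p = 0.1). The alpha to gamma ratio overlapped, at 1.85 ± 0.108 and 2.03 ± 0.143 (exact permutation p = 0.2). With length-weighted unnamed transcripts it did not overlap, at 1.67 ± 0.0134 in the SCPs and 1.996 ± 0.160 in the RSCs (exact permutation p = 0.1). The beta to gamma ratio with unnamed transcripts was lower in the RSCs without overlap, at 2.13 ± 0.161 against 2.45 ± 0.140 in the SCPs (exact permutation p = 0.1). It overlapped with named and with length-weighted transcripts (exact permutation p = 0.5 and 0.2).

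Which trimers each group had the transcripts for was read from the scarcest of their 3 chains. Of 11 trimers, those with all 3 chains at 1 FPKM or more in every sample of a group were counted. With named transcripts the count was 2 in the SCPs, laminins α4β1γ1 and α4β2γ1, and 6 in the RSCs, laminins α4β1γ1, α4β2γ1, α4β2γ3, α5β1γ1, α5β2γ1 and α5β2γ3. Without SCP3 the named count for the SCPs was 6, and without RSC1 that for the RSCs was 9. With unnamed transcripts it was 8 in the SCPs and 9 in the RSCs. Laminins α1β1γ1, α1β2γ1, α2β1γ1, α2β2γ1, α4β1γ1, α4β2γ1, α5β1γ1 and α5β2γ1 counted in the SCPs. In the RSCs all of these counted but α1β1γ1 and α1β2γ1, as Lama1 in RSC2 was at 0.987 FPKM, just under the limit. Laminins α2β1γ3, α4β2γ3 and α5β2γ3 counted in the RSCs only. Protein and assembly were not measured. FPKM came from whole preparations, so whether the 3 chains of a trimer were expressed in the same cells was not tested.

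The level of the scarcest chain separated trimers that the count did not. For laminin α2β1γ1 it was 4.53, 5.02 and 7.15 FPKM in the SCPs, set by Lama2, and 84.4, 99.1 and 85.5 FPKM in the RSCs. For laminin α4β1γ1 it was 47.5, 55.9 and 55.9 FPKM in the SCPs, set by Lamc1, and 86.0, 96.0 and 85.5 FPKM in the RSCs. Laminin α5β1γ1 was limited by Lama5 in all 6 samples, at 3.49 to 5.98 FPKM in the SCPs and 13.6 to 16.0 FPKM in the RSCs. Trimers with gamma3 were limited by Lamc3, at 0.331 to 0.341 FPKM in the SCPs and 2.80 to 3.33 FPKM in the RSCs.

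**Figure D5:**
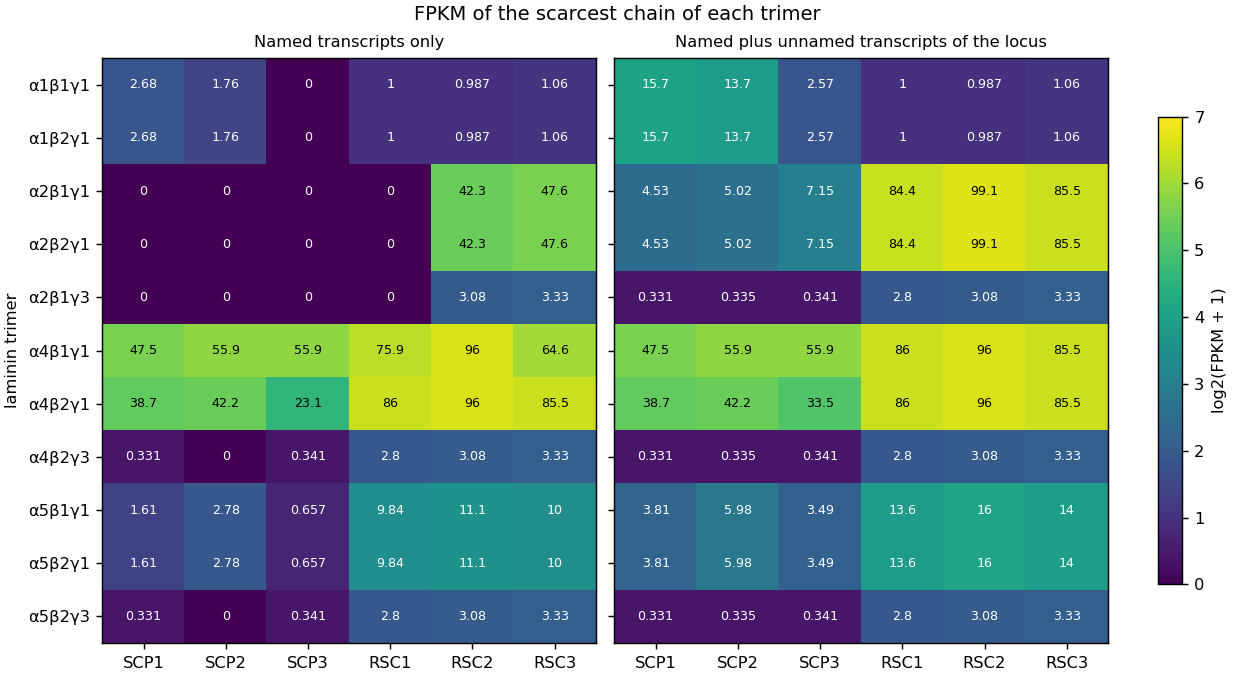
FPKM of the scarcest chain (printed in each cell, colour as log2(FPKM + 1)) of 11 laminin trimers (rows) in the 6 preparations (columns), from named transcripts (left) and with unnamed transcripts (right). Laminins α2β1γ1 and α2β2γ1 are at 0 in the SCPs and RSC1 on the left, and at 84.4 FPKM in RSC1 on the right.

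Receptors that bind laminin were examined next. Of 10 receptor genes tested, 4 were called higher in the RSCs and 1 in the SCPs with named transcripts, and 7 and 2 with unnamed transcripts. The shares over all genes were 18.1% and 22.4% with named and 23.2% and 34.2% with unnamed transcripts. The receptors' median log2 fold change was 1.14 and 1.35, against -0.17 and -0.24 over all genes. Itga7, the alpha subunit of the laminin-binding integrin alpha7beta1, was at 1.02, 1.57 and 1.27 FPKM in SCP1 to SCP3 and at 173, 202 and 166 FPKM in RSC1 to RSC3 (named; log2 fold change 6.31, SE 0.14, limma adjusted p = 7.40e-06). Bcam, a receptor for alpha5 laminins, had a log2 fold change of 1.77 (SE 0.41, limma unadjusted p = 0.00511, adjusted p = 0.0145).

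Itga6 was at 32.8 to 44.1 FPKM in the SCPs and 73.2 to 112.7 FPKM in the RSCs (named; log2 fold change 1.34, SE 0.20, limma adjusted p = 0.0027). Itgb1, the shared beta subunit, had a log2 fold change of 0.83 (SE 0.074, limma adjusted p = 3.88e-04). Itgb4, the beta subunit that pairs with alpha6, was listed at 0 in SCP1 and RSC1 and was not called with named transcripts. With unnamed transcripts it was at 0.396 to 0.605 FPKM in the SCPs and 143, 179 and 214 FPKM in RSC1 to RSC3 (log2 fold change 6.87, SE 0.16, limma adjusted p = 1.23e-06). Dag1, which encodes dystroglycan, was at 45.6, 56.2 and 59.7 FPKM in the SCPs, was listed at 0 in RSC1, and was at 322 and 338 FPKM in RSC2 and RSC3, in both estimates. It was not called. Gpr126, an adhesion receptor that binds laminin α2β1γ1, was lower in the RSCs, at 18.3 to 24.1 FPKM against 42.6 to 53.5 FPKM (named; log2 fold change -1.15, SE 0.14, limma adjusted p = 0.00133).

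Partners of dystroglycan and the enzymes that glycosylate it, 24 genes tested with named transcripts, included 7 called higher in the RSCs and 1 in the SCPs, with a median log2 fold change of 0.51. With unnamed transcripts the counts were 7 and 1 of 26 and the median was 0.12. Over all genes 18.1% and 22.4% were called in these directions with named and 23.2% and 34.2% with unnamed transcripts, the medians being -0.17 and -0.24. Sgcb, a sarcoglycan, was listed at 0 in SCP3 and at 1.48 and 5.63 FPKM in SCP1 and SCP2, and was at 22.2 to 24.9 FPKM in the RSCs (log2 fold change 3.28, SE 0.66, limma adjusted p = 0.00885). With unnamed transcripts its log2 fold change was 1.79 (SE 0.18, adjusted p = 2.18e-04). Sspn, sarcospan, was at 1.36 to 2.28 FPKM and 19.4 to 19.8 FPKM (log2 fold change 2.93, SE 0.18, limma adjusted p = 1.05e-04). Pomt2, an O-mannosyltransferase, fell by 1.45 on the log2 scale (SE 0.31, limma adjusted p = 0.0116) with named transcripts and was not called with unnamed ones.

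Other basement membrane genes were called in each direction, those higher in the SCPs with named transcripts at a share near the background. Of 16 tested with named transcripts 6 were called higher in the RSCs and 4 in the SCPs, and with unnamed transcripts 7 and 9 of 20. Over all genes 18.1% were called higher in the RSCs and 22.4% in the SCPs with named, and 23.2% and 34.2% with unnamed transcripts. The medians were 0.43 and -0.13, against -0.17 and -0.24. Col15a1, a collagen of the outer face of basement membranes, was at 4.62 to 7.06 FPKM in the SCPs and 132 to 178 FPKM in the RSCs (named; log2 fold change 4.41, SE 0.19, limma adjusted p = 3.77e-05). Col7a1, the anchoring fibril collagen, had a log2 fold change of 4.35 (SE 0.14, limma adjusted p = 2.16e-05). Col4a5 and Fbln1 fell by 1.98 and by 1.92 on the log2 scale (SE 0.23 and 0.12, limma adjusted p = 0.00106 and 1.11e-04).

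Agrn, the proteoglycan agrin that binds laminin, was at 97.0, 101 and 125 FPKM in SCP1 to SCP3 and at 32.1, 21.0 and 36.6 FPKM in RSC1 to RSC3 with named transcripts (log2 fold change -1.85, SE 0.22, limma adjusted p = 0.00123). The main type IV collagen chains Col4a1 and Col4a2, to which nidogens tie laminin, were not called, with log2 fold changes of -0.33 (limma adjusted p = 0.104) and 0.22 (adjusted p = 0.509). Hspg2 was not analysed here.

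Markers of some other cell types also moved between the groups, and their part in the member differences was not tested. Sox10, which marks the Schwann lineage, was at 175 to 181 FPKM in the SCPs and at 143 to 149 FPKM in the RSCs, so that it was present in every sample. The 8 Schwann lineage markers summed to 451 to 510.7 FPKM in the SCPs and 1873 to 2395 FPKM in the RSCs with named transcripts.

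With named transcripts, fibroblast and perineurial markers, from cells that also make laminins, summed to 488 to 762 FPKM in the SCPs and 4391 to 6822 FPKM in the RSCs, and 7 of 8 were called higher in the RSCs. Leukocyte markers summed to 13.2 to 35.9 FPKM and 2051 to 2494 FPKM, with 7 of 7 tested called higher in the RSCs. Cybb was listed at 0 in every RSC sample with named transcripts, but with unnamed ones it was at 29.7 to 37.1 FPKM there and 8 of 8 leukocyte markers were called higher in the RSCs. Endothelial markers summed to 36.0 to 64.8 FPKM and 64.1 to 75.5 FPKM, with 0 of 8 called by limma and 4 of 8 at an unadjusted p under 0.05. After unnamed transcripts were added, 1 of 8 endothelial markers was called higher in the RSCs. Mural cell markers summed to 80.5 to 275 FPKM and 139 to 209 FPKM, with 2 of 7 called higher in the RSCs. With unnamed transcripts the mural sums were 138 to 330 FPKM and 302 to 335 FPKM, with 4 of 8 called higher in the RSCs and 2 in the SCPs. In the other direction, embryonic mesenchyme and cartilage markers summed to 127 to 152 FPKM in the SCPs and 14.8 to 25.1 FPKM in the RSCs, with 3 of 5 called higher in the SCPs. Skeletal muscle markers summed to 86.0 to 401 FPKM and 3.57 to 15.0 FPKM, with 6 of 8 called higher in the SCPs and Myod1 and Myf5 at 0 in the RSCs. Erythroid markers summed to 16732 to 74800 FPKM in the SCPs and 1.53 to 2.83 FPKM in the RSCs, and neuronal markers to 30.4 to 52.5 FPKM and 19.0 to 28.5 FPKM. Of those tested, 6 of 7 erythroid and 1 of 5 neuronal markers were called higher in the SCPs. Adding unnamed transcripts changed these counts to 7 of 8 and 3 of 5. It also changed those of mesenchyme and cartilage markers to 5 of 5 and of muscle markers to 8 of 8. Over all genes tested, 18.1% were called higher in the RSCs and 22.4% in the SCPs with named transcripts. With unnamed transcripts these shares were 23.2% and 34.2%.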

How the data were processed

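RNA of 3 SCP and 3 RSC preparations was sequenced by the authors from stranded, paired-end mRNA libraries. Per the labels, reads were processed with TopHat2 2.1.0 and Cufflinks 2.2.1 on rn6, with FastQC 0.11.2. The authors deposited a Cufflinks table per sample with FPKM, its lower and upper bounds, and per-transcript coverage, a signal used here to estimate relative depth. Read counts were not used here, so counting intervals are not given. Transcripts whose gene names had become dates, 77 per sample, were left out.

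FPKM were summed by symbol over named transcripts, and in a second estimate together with unnamed transcripts of the same locus. On log2(FPKM + 1), the groups were tested with limma (3.58.1, under R 4.3.3), using a variance trend and no covariates, for genes averaging 1 FPKM or more. The fit was checked on simulated data. Genes were called at an unadjusted p under 0.01, and 4-fold marks a log2 fold change over 2. The Benjamini-Hochberg adjustment covered every gene tested. Shares and ratios were compared with two-sided exact permutation tests. Promoter windows are RefSeq sequences on GRCr8, a build other than rn6, and share no coordinates with the tables.

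All 10 members are described. From each other list the 2 genes with the largest called change in each direction are named, with Dag1, Itga6, Itgb1, Itgb4, Col4a1, Col4a2, Hspg2 and Agrn by role. Members and lists were chosen with earlier results of these data known. Alternatives covered the pseudocount, the filter, the scaling, the variance trend, the replicate block, the p-value, the gene sum, zeros and leaving out each preparation. Those that combine unnamed transcripts with another choice, or weight them by length, were added after the data were seen.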

Additional observations from a re-analysis of the deposited data

How the results depend on the processing

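The calls of Lama5, Lamb2, Lamc1, Lamc3 and Nid1 as higher in the RSCs held under every alternative that gave a value, those added later included. Depth is known only as relative coverage. Of 267 member values under alternatives, 232 kept their direction and side of the threshold, 27 became called and 8 changed sign. Lama1 with named transcripts changed to 0.011 after median-of-ratios scaling and 0.47 with a pseudocount of 0.1, and ranged from -0.66 to 0.071 when 1 preparation was left out; without SCP1 it was under the filter and gave no value. Lamb1 was -0.036 with the highest transcript alone and -0.039 with unnamed transcripts and quantile normalization. It ranged from -0.074 to 0.25 when 1 preparation was left out, and from -0.049 to 0.072 with unnamed transcripts, being -0.041 without RSC2 and -0.049 without SCP1. The cause of these changes was not tested.

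Adding unnamed transcripts raised the genes called from 5268 to 8040. Members called higher in the SCPs went from 0 to 2, also with quantile normalization, the replicate block or length weights, and to 1 with median-of-ratios scaling. Leaving out 1 preparation gave 0 to 1 in either estimate. Other basement membrane genes higher in the SCPs numbered 2 at a mean of at least 5 FPKM and 9 with unnamed transcripts, against 4. Receptors became 7 higher in the RSCs and 2 higher in the SCPs. Dystroglycan partners higher in the SCPs were 0 at adjusted p and under the block, and 0 to 2 when 1 preparation was left out, being 2 without RSC1 and 0 without SCP1 or SCP2. Shares in points, RSC minus SCP, with unnamed and with length-weighted transcripts were -10.3 and -3.89 for Lama1 (named -1.11), 40.3 and 40.9 for Lama2 (20.0), 2.91 and 3.41 for Lama5 (6.0) and 27.8 in both for Nid1 (24.9). Lama4 was -40.5 with weights (-24.8), and Lamc3 1.79 with the highest transcript alone (2.74). Trimers in the SCPs were 8 in both, and 2 to 6 when 1 preparation was left out, being 6 without SCP3, against 2.

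With the replicate number as a block, 4275 genes were called in place of 5268, and 1482 over 4-fold. The deviations of log2(FPKM + 1) from the group mean, over genes, were correlated between same-numbered SCP and RSC preparations. These correlations were 0.0435, -0.0049 and 0.0259, all under 0.1, so the numbers were not taken to pair samples.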
